A study of Mus musculus with 238 samples.

Results

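The neurotrophin genes described here are Bdnf and Ntf3, which encode the secreted growth factors BDNF and NT-3, and Ntrk2, Ntrk3 and Ngfr, which encode the receptors TrkB, TrkC and p75. They were chosen by name from the count table, where they are 5 of 21076 gene rows, and were followed through 15 brain regions and through both treatments of the study. The mice were of the C57BL/6JN strain and 19 months old. In a diet experiment, 5 females were on dietary restriction (labelled aDR, and DR in liver) and 4 were fed ad libitum (AL), which gave 131 brain libraries and 9 liver libraries. In a plasma experiment, 3 males received retro-orbital injections of young mouse plasma (YMP) and 4 received PBS, which gave 98 brain libraries. Each sex was used in 1 experiment only, so a difference between the AL and the PBS mice cannot be told apart from a difference between the sexes.

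BDNF binds TrkB and NT-3 binds TrkC, both of them receptor tyrosine kinases that act through Ras and MAP kinase, PI3 kinase and phospholipase C gamma. p75 binds all neurotrophins and their uncleaved precursors, and works either beside a Trk receptor or with sortilin. In the adult brain BDNF is made mainly by excitatory neurons and is known for its part in synaptic plasticity, NT-3 is known from dentate granule cells, and p75 marks cholinergic neurons of the basal forebrain. TrkB and TrkC are made as full-length kinases, mainly in neurons, and as truncated forms without the kinase, which for TrkB are abundant in astrocytes. Counts per gene add these forms together.

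On the GRCm38 build, Bdnf (ENSMUSG00000048482.14) lies on the forward strand at chr2:109674700-109727007 and has 11 annotated transcripts that start from several promoters. Its exons share 896 bases with the antisense gene Gm45346, which has no row of its own, and the libraries carry no strand. Ntf3 (ENSMUSG00000049107.13) lies on the reverse strand at chr6:126101412-126166910. Ntrk2 (ENSMUSG00000055254.15) lies at chr13:58806569-59133970 on the forward strand, with 7 coding transcripts of 10. Ntrk3 (ENSMUSG00000059146.12) lies at chr7:78175959-78738012 on the reverse strand, with 6 coding transcripts of 20. Ngfr (ENSMUSG00000000120.6) lies at chr11:95568818-95587735 on the reverse strand and has 1 transcript.

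Bdnf is a textbook target of the activity-regulated factor CREB, and the start site whose window holds a CREB motif is shown because Bdnf is compared with activity-regulated genes further on. RefSeq windows of 300 bases around a start site (GRCm38.p6) were matched for 4 of the 5 genes, and Ntrk3 had no entry. Both strands were searched for the full CREB motif TGACGTCA, for its core TGACG, which is also part of the full motif, and for the E-box CACGTG. None of the 7 Bdnf windows held TGACGTCA, and 1 held the core. Among 32851 RefSeq windows, 1.79% held TGACGTCA, 20.8% held TGACG and 7.15% held CACGTG. The E-box occurred in 1 of the 2 Ntf3 windows, and the single windows of Ntrk2 and Ngfr held none of the 3 motifs. The Bdnf window with the core lies at chr2:109692186-109692485 on the forward strand, with its start site at 109692436. It reads as follows, with the core in capitals, where CGTCA is TGACG read on the other strand.
Bdnf, window with the CREB core: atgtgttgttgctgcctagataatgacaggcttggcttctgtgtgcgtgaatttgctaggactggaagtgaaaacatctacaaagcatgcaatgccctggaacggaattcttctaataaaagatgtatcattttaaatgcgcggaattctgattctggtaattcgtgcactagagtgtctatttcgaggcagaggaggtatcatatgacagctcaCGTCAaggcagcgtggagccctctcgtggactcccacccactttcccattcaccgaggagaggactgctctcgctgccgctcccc

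The brain libraries held from 0.606 to 32.4 M counts (median 8.47 M), and 6 had fewer than 2 M. Values per library are CPM, the counts of a gene per M counts of its library, with the library total scaled by TMM (trimmed mean of M values, a correction for library composition). Markers of regional neurons were highest where the labels place them: the summed CPM of 4 striatal neuron genes was 2850 to 5010 in caudate putamen, that of 2 cerebellar granule cell genes was 1100 to 1480 in cerebellum, and that of 3 dentate granule cell genes was 292 to 567 in anterior hippocampus. Other summed markers crossed the labels. The 6 choroid plexus epithelium genes summed to only 683 and 1020 CPM in the choroid plexus libraries of AL mice 66 and 63, but 19500 CPM in 1 SVZ library (PBS mouse 72). The median of this sum was 8370 CPM in the choroid plexus libraries of control mice, 8180 in those of corpus callosum and 2890 in those of SVZ. Choroid plexus libraries held 4290 to 5750 CPM of 4 pan-neuronal genes, so the values under that label are those of mixed tissue. In these bulk samples, fewer cells of a type and less RNA per cell cannot be told apart.

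The first comparison asked where in the brain of the control mice (4 AL and 4 PBS) each gene was expressed. All 5 genes differed between regions. The ligands had the wider span: the highest and lowest regional means lay 5.84 log2 units apart for Bdnf and 5.94 for Ntf3, against 1.04 for Ntrk2, 2.01 for Ntrk3 and 3.06 for Ngfr, with a median of 1.31 over the 15321 genes tested. The edgeR quasi-likelihood F test over regions, with the mouse as a block, gave F = 53.4 for Bdnf, 35.9 for Ntf3, 46.3 for Ntrk2, 30.8 for Ntrk3 and 15.5 for Ngfr, and the largest adjusted p was 1.42e-18 (Ngfr). A call by this test is not particular to these genes, since 99.7% of genes passed it. Of the 105 pairs of these regions, 83 differed in Bdnf, 81 in Ntf3, 77 in Ntrk2, 69 in Ntrk3 and 63 in Ngfr at an adjusted p under 0.05, where 60.3% of all gene and pair combinations did. The count for Ngfr is thus near the share of all genes. The order of regions was much alike in both sets of controls, with Pearson r between the AL and the PBS means of 0.947 for Bdnf, 0.919 for Ntf3, 0.949 for Ntrk2, 0.943 for Ntrk3 and 0.896 for Ngfr over 15 regions that share their mice.

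**Figure D1:**
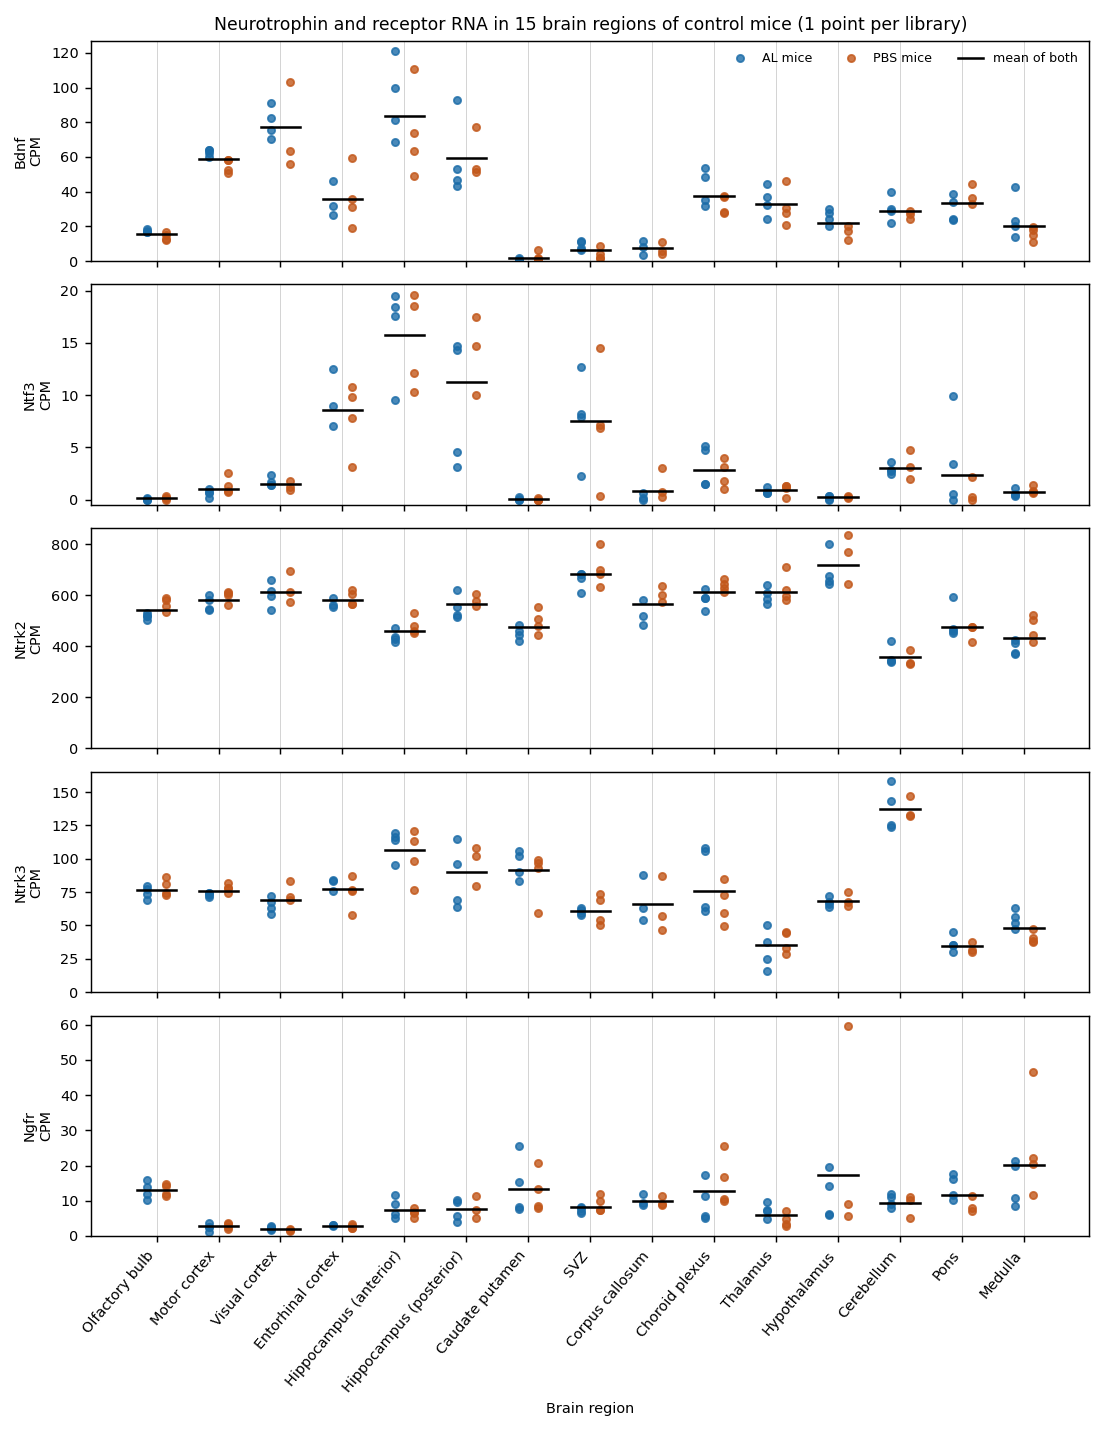
CPM of each gene (y axis, 1 panel per gene, linear scale from 0) in the control libraries of 15 brain regions (x axis), 1 point per library, AL mice in blue and PBS mice in orange, with a line at the mean of both. Bdnf was highest in hippocampus and visual cortex and lowest in caudate putamen, Ntf3 had its 4 highest means in hippocampus, entorhinal cortex and SVZ, Ntrk2 stayed between 330 and 837 CPM everywhere, Ntrk3 was highest in cerebellum, and 1 hypothalamus library of Ngfr stood at 59.7 CPM.

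Bdnf RNA was highest in the hippocampus and the neocortex. In anterior hippocampus it was 99.7, 68.8, 121 and 81.4 CPM in the AL mice and 49.2, 111, 73.9 and 63.7 CPM in the PBS mice (83.5 ± 24.6, SD, n = 8). Visual cortex followed at 77.5 ± 16.3 CPM (SD, n = 7), posterior hippocampus at 59.6 ± 18.3 (SD, n = 7) and motor cortex at 58.6 ± 4.99 (SD, n = 8). Among these 4 regions no neighbours in the order were called as different (edgeR adjusted p 0.17 to 1). Here and below, neighbours are next to each other in the order of the gene's own means. A run without a step therefore does not show that its ends are alike. Choroid plexus libraries (37.4 ± 9.32, SD, n = 8) were lower than motor cortex by 0.63 log2 units (SE 0.21, adjusted p 0.00895) and led a long run without a step, through entorhinal cortex (35.7 ± 13.3), pons (33.4 ± 7.44), thalamus (32.9 ± 9.13), cerebellum (28.7 ± 5.62), hypothalamus (21.8 ± 6.13), medulla (20.5 ± 9.83) and olfactory bulb (15.7 ± 2.22). The 2 choroid plexus libraries with least epithelial marker, of AL mice 63 and 66, had the most Bdnf of the 8, at 48.3 and 53.9 CPM against 27.7 to 37.4 in the others, and the part of neighbouring tissue in these values was not tested. A second step of 1.14 log2 units (SE 0.30, adjusted p 0.000545) led from olfactory bulb to corpus callosum (7.37 ± 3.47, SD, n = 6).

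Caudate putamen, which is known to receive its BDNF protein from cortical axons, held the least Bdnf RNA. Its values were 1.47, 0.691, 0.744 and 0.589 CPM in the AL mice and 6.28, 1.52, 1.06 and 0.726 CPM in the PBS mice, from 7 to 77 reads per library. It was the lowest region in 7 of 8 mice and lay below SVZ (6.54 ± 3.69, SD, n = 8) by 1.96 log2 units (SE 0.34, adjusted p 6.41e-07). The single high library, of PBS mouse 72, also held 158 CPM of the excitatory neuron genes Slc17a7 and Slc17a6, against 1.26 to 3.38 in the AL and 0.953 to 46.2 in the other PBS libraries, and the part of cortical tissue in it was not tested. Without that mouse the difference from SVZ was 3.08 log2 units, and in PBS mice alone, mouse 72 included, it was 0.65 (adjusted p 0.333).

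Ntf3 was concentrated in hippocampus, entorhinal cortex and SVZ. Anterior hippocampus held 18.4, 9.56, 19.5 and 17.6 CPM in the AL mice and 10.3, 19.6, 18.5 and 12.1 CPM in the PBS mice (15.7 ± 4.28, SD, n = 8), and it was the highest region in 7 of 8 mice. Posterior hippocampus (11.3 ± 5.54, SD, n = 7), entorhinal cortex (8.56 ± 3.03, SD, n = 7) and SVZ (7.48 ± 4.73, SD, n = 8) followed without a step between neighbours (edgeR adjusted p 0.251 to 0.704). Cerebellum was next at 3.05 ± 0.905 CPM (SD, n = 7), lower than SVZ by 1.09 log2 units (SE 0.41, adjusted p 0.0155). In caudate putamen, which borders SVZ, 5 of 8 libraries had no Ntf3 read and the highest had 2. Set against a floor of 3 reads in each of these libraries (0.309 CPM on average), the mean was at least 24.2-fold higher in SVZ and at least 50.8-fold higher in anterior hippocampus, limits that cover counting error only. Olfactory bulb and hypothalamus also had at most 5 reads in any control library.

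Within regions Ntf3 varied strongly from mouse to mouse. In SVZ it was 8.21, 2.28, 12.7 and 7.86 CPM in the AL mice and 0.318, 6.84, 7.1 and 14.5 CPM in the PBS mice. The lowest library, of PBS mouse 72, also had the most striatal marker (2970 CPM against 758 to 1360) and the most choroid plexus marker (19500 against 56.6 to 8340) of the 8, and the part of dissection in its low value was not tested. In pons the AL mice had 0, 0.576, 9.94 and 3.39 CPM and the PBS mice 0.235, 0 and 2.2. The highest of these libraries, of AL mouse 68, also had the least pan-neuronal marker (4030 CPM against 6740 to 7770), which was likewise not tested as a cause.

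Ntrk2 was the most abundant of the 5 genes and the most even. Its control means ran from 357 CPM in cerebellum to 718 CPM in hypothalamus, a span that lies at the 37.9th percentile of all genes tested. Hypothalamus held 802, 657, 675 and 643 CPM in the AL mice and 643, 769 and 837 CPM in the PBS mice (718 ± 82.3, SD, n = 7), and SVZ 682 ± 56.7 CPM (SD, n = 8). These were the highest regions, and SVZ exceeded thalamus, the next, by 0.17 log2 units (SE 0.05, edgeR adjusted p 0.00521). Cerebellum was lowest, with 341, 345, 422 and 340 CPM in the AL mice and 335, 330 and 386 CPM in the PBS mice. Cerebellum did not overlap hypothalamus or SVZ, and it lay below medulla, its neighbour in the order, by 0.29 log2 units (SE 0.06, adjusted p 2.58e-06). Between these ends, 8 regions from thalamus (613 ± 46.2) down to olfactory bulb (541 ± 31.1) showed no step between neighbours.

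Ntrk3 had its peak in cerebellum, with 124, 158, 125 and 143 CPM in the AL mice and 147, 133 and 132 CPM in the PBS mice (137 ± 12.6, SD, n = 7). It was the highest region in 7 of 8 mice and exceeded anterior hippocampus (107 ± 15.4, SD, n = 8) by 0.34 log2 units (SE 0.13, edgeR adjusted p 0.0144). Caudate putamen (91.2 ± 14.7) and posterior hippocampus (90.4 ± 20) came next, and a run from entorhinal cortex (77.1 ± 9.62) to SVZ (61.1 ± 7.6) had no step between neighbours. Medulla (47.8 ± 9.21, SD, n = 8), thalamus (35, from 16.1 to 50.5, n = 8) and pons (34.9 ± 5.26, SD, n = 7) were lowest. Cerebellum and pons, which lie side by side in the hindbrain, stood at opposite ends, with 124 to 158 CPM in the control cerebella and 29.8 to 44.9 CPM in the control pons libraries.

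Ngfr was low in all cortical areas and higher in brainstem, hypothalamus, striatum and olfactory bulb. Visual cortex had 1.99 ± 0.513 CPM (SD, n = 7), motor cortex 2.69 ± 0.868 (SD, n = 8) and entorhinal cortex 2.81 ± 0.49 (SD, n = 7), and the step up to thalamus (5.89 ± 2.31, SD, n = 8) was 1.09 log2 units (SE 0.36, edgeR adjusted p 0.00758). No other pair of neighbouring regions was called. Medulla had the highest mean, with 19.8, 10.8, 21.2 and 8.38 CPM in the AL mice and 11.6, 20.3, 22.2 and 46.5 CPM in the PBS mice (20.1 ± 11.9, SD, n = 8). Caudate putamen had 13.5 ± 6.72 CPM (SD, n = 8) and olfactory bulb 13 ± 2.01 (SD, n = 8).

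The high mean of Ngfr in hypothalamus rested on 1 library, whereas in medulla the median (20.1 CPM) was as high as the mean. In hypothalamus the AL mice had 19.5, 14.3, 5.94 and 6.2 CPM and the PBS mice 59.7, 9.09 and 5.79 CPM, a mean of 17.2 but a median of 9.09. In the library at 59.7, of PBS mouse 72, the sum of the 3 cholinergic genes Chat, Slc18a3 and Slc5a7 was 89.1 CPM, against 3.53 to 9.43 in the others. In the medulla library at 46.5 CPM, of PBS mouse 84, the cholinergic sum was instead the lowest of the 8 (9.53 CPM against 48 to 280). The part of cholinergic or other cells in either value was not tested.

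The design was then used to set 9 pairs of regions side by side that are neighbours, related or of contrasting tissue. Of the 45 values, 24 were called at an adjusted p under 0.05 by edgeR over all genes of the pair. Between posterior and anterior hippocampus 1 of the 5 genes was called, Ntrk2, which was higher in the posterior part by 0.28 log2 units (SE 0.06, adjusted p 4.79e-05) and in 7 of 7 mice, where 25.8% of genes differed. Bdnf was lower in the posterior part in 7 of 7 mice but was not called (adjusted p 0.0841). Visual and motor cortex differed in 0 of the 5 genes by edgeR (0 at an unadjusted p under 0.05, 0 by DESeq2, and 1 by edgeR with the treated mice added), where 9.33% of all genes were called.

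Entorhinal cortex and anterior hippocampus were each compared with motor cortex. In entorhinal cortex Ntf3 was higher by 3.12 log2 units (SE 0.47, edgeR adjusted p 4.68e-08) and in 7 of 7 mice, and Bdnf was lower by -0.69 (SE 0.23, adjusted p 0.0104), where 43.7% of genes differed. The Bdnf call was lost without PBS mouse 80 (-0.58, adjusted p 0.0739). In anterior hippocampus Ntf3 was higher by 3.95 (SE 0.46, adjusted p 3.52e-12), Ngfr by 1.47 (SE 0.35, adjusted p 0.00024) and Ntrk3 by 0.51 (SE 0.12, adjusted p 0.000392), and Ntrk2 was lower by -0.33 (SE 0.05, adjusted p 2.19e-07) in 8 of 8 mice, where 52.1% of genes differed. Bdnf was higher there by 0.50 (SE 0.21, adjusted p 0.0435), a call that did not hold without any 1 of AL mice 63, 68 and 69 or PBS mice 76, 80 and 84 (0.41 to 0.52, adjusted p 0.0596 to 0.125), nor by DESeq2 (adjusted p 0.0713).

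SVZ and caudate putamen differed in all 5 genes, where 52.5% of genes differed. Beside the higher Bdnf and Ntf3 given above, SVZ had more Ntrk2, by 0.55 log2 units (SE 0.05, edgeR adjusted p 2.62e-15) and in 8 of 8 mice. Ntrk3 was lower there by -0.55 (SE 0.12, adjusted p 9.87e-05), in 8 of 8 mice, and Ngfr by -0.67 (SE 0.29, adjusted p 0.0473). The Ngfr call was lost without any 1 of AL mice 66, 68 and 69 or PBS mice 76 and 80 (-0.49 to -0.71, adjusted p 0.0523 to 0.186). Corpus callosum, a white matter tract, had less Bdnf than motor cortex by -3.05 (SE 0.30, adjusted p 1.05e-15) and more Ngfr by 1.97 (SE 0.37, adjusted p 2.11e-06), each in 6 of 6 mice, where 62% of genes differed. The corpus callosum libraries of these mice also held 1530 to 3670 CPM of striatal projection neuron markers (66.1 to 101 in motor cortex), 24.5 to 79 CPM of cholinergic markers (0.64 to 2.69 in motor cortex) and a median of 8180 CPM of choroid plexus markers (2.42 in motor cortex). The part of these cells in both differences was not tested.

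In the hindbrain, cerebellum had more Ntrk3 than pons by 1.95 log2 units (SE 0.14, edgeR adjusted p 4.93e-23) and less Ntrk2 by -0.42 (SE 0.06, adjusted p 3.31e-10), each in 6 of 6 mice, where 69.6% of genes differed. Medulla had more Ntrk3 than pons by 0.46 (SE 0.14, adjusted p 0.0129) and less Ntf3 by -1.52 (SE 0.53, adjusted p 0.0341), the latter in 4 of 7 mice, where 16.1% of genes differed. The Ntf3 value was -0.63 (adjusted p 0.528) without AL mouse 68, -1.27 (0.168) without AL mouse 69 and -1.53 (0.069) without PBS mouse 84, and the Ntrk3 value was 0.39 (adjusted p 0.0982) without AL mouse 69.

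Thalamus and hypothalamus differed in all 5 genes, where 55.2% of genes differed. Thalamus had less Ntrk3 by -0.94 log2 units (SE 0.13, edgeR adjusted p 2.02e-09) and less Ntrk2 by -0.22 (SE 0.06, adjusted p 0.000371), each in 7 of 7 mice. Ngfr was lower by -1.46 (SE 0.31, adjusted p 2.87e-05) and in 6 of 7 mice, but by -0.65 (adjusted p 0.153) in AL mice alone, a set without the hypothalamus library at 59.7 CPM. Bdnf was higher by 0.57 (SE 0.23, adjusted p 0.0347) in 7 of 7 mice, a call lost without any 1 of AL mouse 63 and PBS mice 76, 80 and 84 (0.51 to 0.58, adjusted p 0.0663 to 0.0999) and by DESeq2 (adjusted p 0.0567). Ntf3 was called too (0.877 against 0.219 CPM, adjusted p 0.0236), but from at most 12 reads in thalamus and 4 in hypothalamus, and not without AL mouse 66 (adjusted p 0.0664) or PBS mouse 84 (0.0565).

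To set levels of different genes side by side, CPM was divided by the length of all annotated exons, in kilobases. On this scale Ntrk2 stood at 37.2 CPM per kb in hypothalamus and 18.5 in cerebellum, above the other 4 genes in every region. Bdnf reached 13.4 CPM per kb and Ntf3 9.14 in anterior hippocampus, while Ngfr reached 5.83 in medulla and Ntrk3 4.56 in cerebellum. The exon lengths of Ntrk2 (19.292 kb) and Ntrk3 (30.170 kb) include parts used by few transcripts, so their levels per kilobase are low estimates for the forms in use.

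The 5 regional profiles were largely different from each other. Over 15 regions that share their mice, Bdnf and Ntf3 were the most alike (Pearson r 0.516, Spearman rho 0.607), while Ngfr ran against Bdnf (r -0.509, rho -0.668). Each ligand had little relation to its main receptor: r was -0.000462 between Bdnf and Ntrk2 and 0.317 between Ntf3 and Ntrk3. By correlation of the log2 regional means, genes most like Bdnf were Nrn1 (0.946), which encodes the activity-regulated protein neuritin, and Kcnj6 (0.872), a potassium channel gene. Nrn1 ran from 6.07 CPM in caudate putamen to 218 CPM in motor cortex. The genes most like Ntf3 were Ccdc71l (0.809), Mir99ahg (0.804) and Mphosph10 (0.801), and those most like Ntrk2 were Efcab10 (0.94), Tctn2 (0.919) and Fank1 (0.915). For Ntrk3 they were Wscd2 (0.927), Kbtbd11 (0.913) and Ccdc142 (0.894), and for Ngfr Fcgr1 (0.936), Tns3 (0.919) and Gpr139 (0.912).

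For a comparison with cell type markers, each list was taken as the mean log2 CPM of its genes, each centred on its own mean. This differs from the summed CPM used elsewhere. Over the same 15 regions, Bdnf went with excitatory neuron markers (r 0.866) and against striatal neuron (-0.867) and cholinergic markers (-0.76). Ntf3 went most with dentate granule cell markers (0.585). Ntrk2 went with oligodendrocyte precursor markers (0.703) and against cerebellar granule cell markers (-0.711), while its correlation with the 7 astrocyte genes was -0.548. Ngfr went with oligodendrocyte markers (0.712) and against pan-neuronal (-0.736) and cortical projection neuron markers (-0.75). Ntrk3 had no correlation beyond 0.466 (inhibitory neuron markers) in either direction. These are descriptions over 15 points from the same 8 mice, in tissue where marker lists are themselves related.

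The second question was whether either treatment changed these genes in any region. No member was called in any region by edgeR. After the filter on low counts, Ntrk2, Ntrk3 and Ngfr could be tested in all 15 regions, Bdnf in 15 in the plasma experiment and in 14 in the diet experiment (not in caudate putamen), and Ntf3 in 7 in each. Of the 66 tests for diet, 0 passed an adjusted p of 0.05, by edgeR and by DESeq2, and 8 had an unadjusted p under 0.05. Over all genes, those under that p by edgeR ran from 222 of 13578 in pons to 1931 of 14119 in olfactory bulb. Of all gene and region combinations 0.0525% were called in this experiment. Of the 67 tests for plasma, 0 passed by either tool and 9 had an unadjusted p under 0.05, with 0.0127% called over all genes. Under plasma, from 150 of 13135 genes in pons to 1910 of 14120 in SVZ had such an unadjusted p by edgeR. Both ranges give the lowest and the highest single region, and the share over all regions together is not given here. The counts of 8 and 9 are therefore not read as like or unlike those of all genes. The values of treated and control mice did not overlap in 3 diet tests and in 7 plasma tests, where this held for 3.04% and 9.29% of all gene and region combinations.

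**Figure D2:**
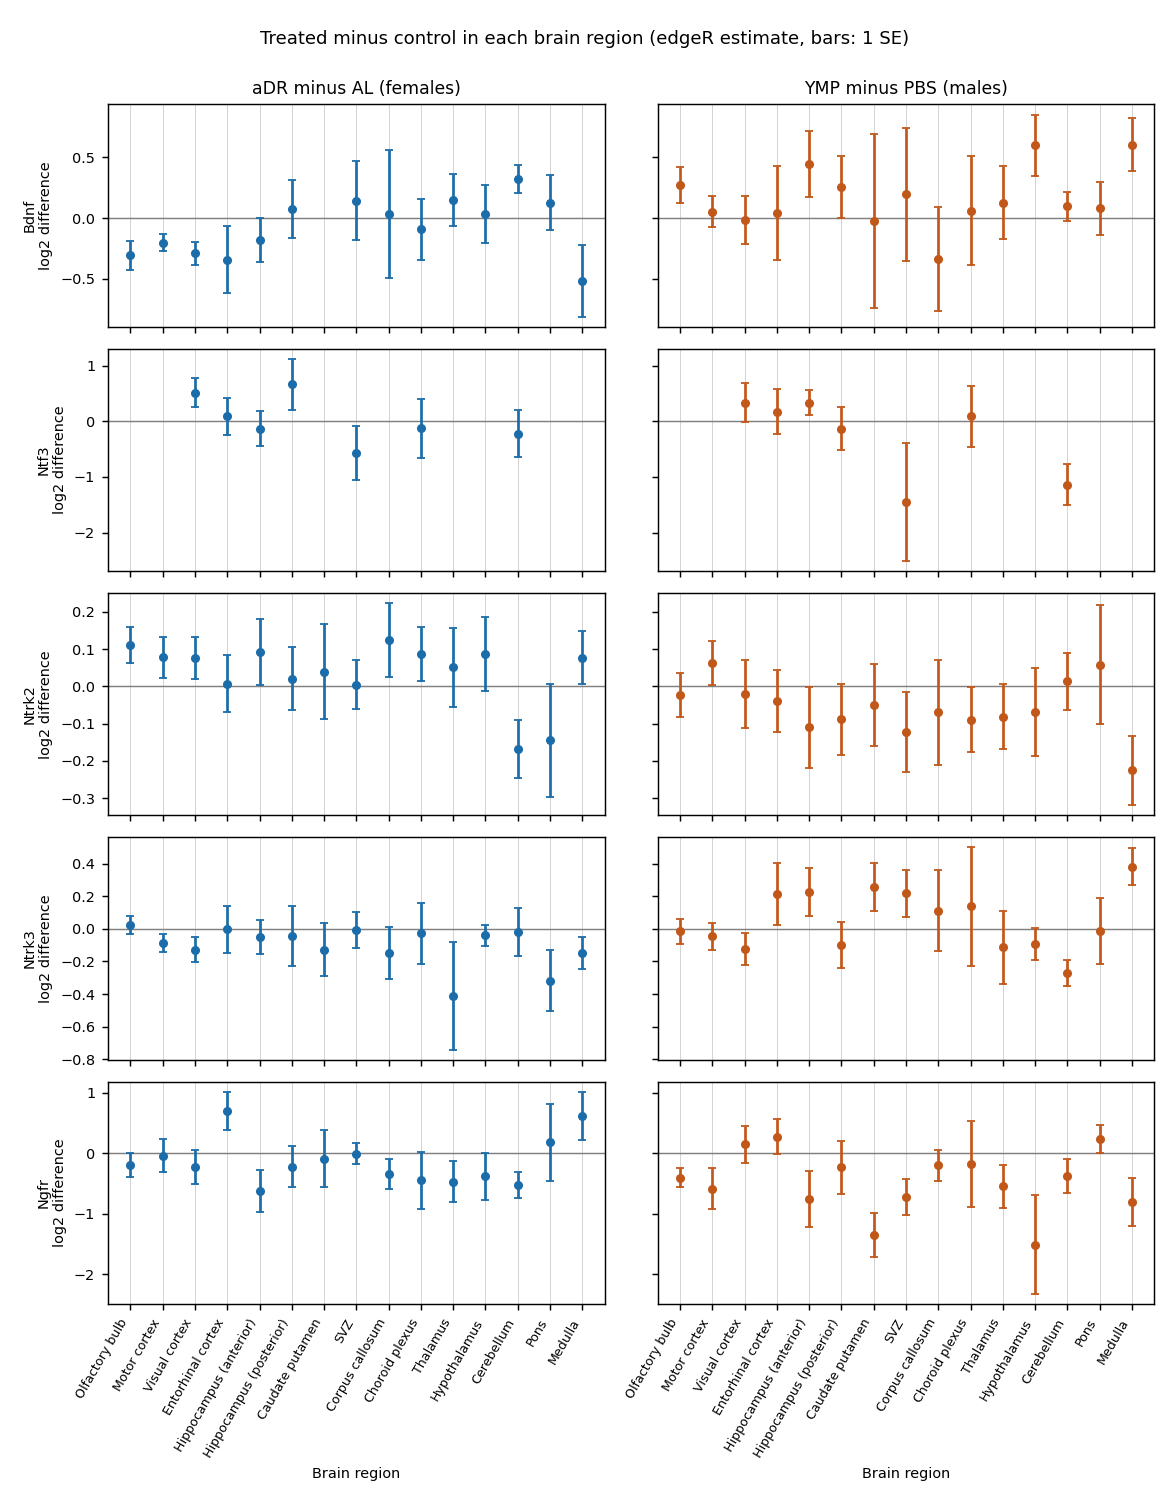
Log2 difference of treated minus control mice for each gene (rows) in each brain region (x axis), for diet (left) and plasma (right), with edgeR estimates as points, 1 SE as bars, and an empty place where the gene did not pass the filter on low counts. Most bars reach the line at 0, Ntrk2 lies above it in 13 of 15 regions under diet and below it in 12 of 15 under plasma, and no value passed the adjusted threshold.

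Under diet, Bdnf was lower in restricted mice in 7 regions and higher in 7. Its smallest p was in visual cortex, with 62.1, 72.6, 83.2, 65.9 and 55.2 CPM in the aDR mice and 70.2, 75.7, 91.1 and 82.4 CPM in the AL mice. The groups overlapped, and the log2 difference was -0.29 (SE 0.10, p 0.00746, edgeR adjusted p 0.317). Motor cortex (-0.20, p 0.0108), olfactory bulb (-0.31, p 0.0217) and cerebellum (0.32, p 0.0179) also had an unadjusted p under 0.05, in cerebellum with the opposite sign. For Ntf3 the smallest p was likewise in visual cortex, with 2.6 CPM in aDR and 1.7 CPM in AL mice (0.51, SE 0.26, p 0.0643, adjusted p 0.572).

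The receptors leaned one way under diet without reaching the threshold. Ntrk2 was higher in aDR mice in 13 of 15 regions, by 0.13 log2 units at most. In olfactory bulb the aDR mice had 578, 533, 546, 578 and 556 CPM and the AL mice 529, 517, 520 and 504 CPM, which did not overlap (0.11, SE 0.05, p 0.0352, edgeR adjusted p 0.333). Ntrk3 was lower in aDR mice in 14 of 15 regions, with a median of -0.05 and its smallest p in visual cortex (60.5 against 65.2 CPM, -0.13, SE 0.08, p 0.114, adjusted p 0.656). Ngfr was lower in 12 of 15 regions, with a median of -0.22. In cerebellum it was 9.98, 8.75, 5.13, 5.37 and 6 CPM in the aDR mice and 7.98, 9.12, 11 and 12 CPM in the AL mice, which overlapped (-0.52, SE 0.21, p 0.0297, adjusted p 0.315). Entorhinal cortex went the other way without overlap, with 4.92 CPM in 5 aDR and 3.03 CPM in 3 AL mice (0.70, SE 0.31, p 0.0495, adjusted p 1). Regions of the same mice are not independent, so these counts of regions carry no test.

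Under plasma, Bdnf was higher in YMP mice in 12 of 15 regions, with a median of 0.10 log2 units. In medulla the YMP mice had 32.2, 19.9 and 20.7 CPM and the PBS mice 18, 19.7, 15.3 and 11.1 CPM, without overlap (0.60, SE 0.22, p 0.0192, edgeR adjusted p 0.482). Of these 7 libraries, the one with the least Bdnf, of PBS mouse 84, had a sum of choroid plexus markers of 326 CPM against 6.25 to 33.8 in the others, and the part of that tissue was not tested. Olfactory ensheathing and Schwann glia markers were lower in the YMP libraries without overlap (238 to 278 against 284 to 321 CPM), which was likewise not tested. Ntf3 had its smallest p in cerebellum, with 1.31, 1.38 and 1.81 CPM in the YMP mice and 4.72, 3.16 and 1.93 CPM in the PBS mice, without overlap (-1.14, SE 0.37, p 0.0126, adjusted p 0.429). The sum of meningeal and perivascular fibroblast markers there was also lower, at 45.3 to 56.4 CPM in the YMP and 64.9 to 67.7 CPM in the PBS libraries, without overlap, while oligodendrocyte sums overlapped (7000 to 12100 and 6190 to 8130 CPM). The part of these cells in the Ntf3 value was not tested.

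Among the receptors under plasma, Ntrk2 was lower in YMP mice in 12 of 15 regions, with its smallest p in medulla (385, 420 and 399 CPM in the YMP mice and 415, 445, 502 and 524 CPM in the PBS mice, which overlapped, -0.23, SE 0.09, p 0.0351, edgeR adjusted p 0.499). Ntrk3 lay on both sides of 0. In medulla it was 58.8, 51.2 and 47.8 CPM in the YMP mice and 40.3, 47.7, 38 and 37.4 CPM in the PBS mice (0.38, SE 0.11, p 0.00647, adjusted p 0.447). In cerebellum the sign was opposite, with 121, 105 and 113 CPM in the YMP mice and 147, 133 and 132 CPM in the PBS mice (-0.27, SE 0.08, p 0.00731, adjusted p 0.429). Neither pair of groups overlapped, although in medulla the nearest values, 47.8 and 47.7 CPM, were almost equal. The medulla libraries of YMP mice also held less of the olfactory ensheathing and Schwann glia markers, without overlap (238 to 278 against 284 to 321 CPM), and 20000 to 25400 CPM of oligodendrocyte markers against 25000 to 30500, and the part of these cells was not tested.

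The smallest p of all members within a region belonged to Ngfr in caudate putamen under plasma. The YMP mice had 4.52, 5.86 and 4.83 CPM and the PBS mice 7.91, 20.8, 13.4 and 8.61 CPM, so that every PBS mouse was above every YMP mouse (-1.35, SE 0.37, p 0.00511, edgeR adjusted p 0.474). The library at 20.8 CPM, of PBS mouse 76, also held 3620 CPM of choroid plexus markers against 11.1 to 29.8 in the other 6, and 35900 CPM of oligodendrocyte markers against 9710 to 18100. Without this mouse the difference was -1.01. In SVZ (-0.72, p 0.0423) and olfactory bulb (-0.40, p 0.0216) Ngfr also had an unadjusted p under 0.05, with overlapping groups. The SVZ libraries of the PBS and YMP mice also differed without overlap in choroid plexus and fibroblast markers, given further on. The part of those tissues in the SVZ value was not tested. In caudate putamen, oligodendrocyte markers were at 15100 to 35900 CPM in the PBS and 9710 to 15400 CPM in the YMP libraries. Other sums there did not overlap. Ensheathing and Schwann glia (175 to 323 against 115 to 154 CPM), astrocyte (3350 to 4590 against 2860 to 3060) and ependyma markers (3.91 to 61 against 1.22 to 1.84) were lower in YMP mice. Striatal projection neuron markers were higher in YMP mice (2850 to 4370 CPM in PBS, 4550 to 5240 in YMP). The part of these cells in the Ngfr difference was not tested. The cholinergic markers, which belong to interneurons of this region, overlapped between the groups (64 to 166 CPM in the PBS and 120 to 144 CPM in the YMP libraries).

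With 1 value per mouse over all its regions, no member passed the threshold in either experiment (limma on the mouse term of a fit of log2 CPM on region and mouse). For diet the differences were -0.09 for Bdnf (SE 0.06, adjusted p 0.483), -0.04 for Ntf3 (SE 0.10, adjusted p 0.904), 0.03 for Ntrk2 (SE 0.03, adjusted p 0.676), -0.10 for Ntrk3 (SE 0.06, adjusted p 0.417) and -0.20 for Ngfr (SE 0.17, adjusted p 0.626), where 0.922% of 15616 genes were called. The values of the 5 genes overlapped between the diets, and over all genes 8.3% did not. The Ngfr difference came mainly from aDR mouse 67, at -0.73 when the other 8 mice lay between -0.00184 and 0.28, and it was -0.04 without that mouse. The pons library of mouse 67 held 4 Ngfr reads and 23.4% of its counts in its top 10 genes, against 5.72 to 7.12% in the other pons libraries. The part of that library in the value of the mouse was not tested.

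For plasma the differences were 0.19 for Bdnf (SE 0.12, adjusted p 0.713), -0.10 for Ntf3 (SE 0.19, adjusted p 0.903), -0.04 for Ntrk2 (SE 0.05, adjusted p 0.843) and 0.06 for Ntrk3 (SE 0.06, adjusted p 0.826), with overlapping values, and limma called 0 of 15768 genes (0%, with 1275 at an unadjusted p under 0.05). Ngfr had the largest difference of the 5 genes, at -0.17, -0.29 and -0.33 in the YMP mice and 0.52, 0.25, 0.08 and -0.06 in the PBS mice. Every YMP mouse was below every PBS mouse, as in 10.1% of all genes without overlap in either direction, and the difference was -0.46 (SE 0.13, p 0.00907, adjusted p 0.466). Treating libraries as independent, edgeR called it (-0.50, adjusted p 0.0101), but so it did 2114 of the 15768 genes. The Ngfr value of 0.52 was that of PBS mouse 72, which had libraries of 11 regions, with the hypothalamus library at 59.7 CPM among them. The part of that library in the value of the mouse was not tested. The mouse values of choroid plexus epithelium markers (-1.32), fibroblast markers (-0.35) and astrocyte markers (-0.09) were also lower in YMP mice without overlap, while those of oligodendrocyte (-0.15) and cholinergic markers (0.08) overlapped. The part of these cells in the Ngfr difference was not tested.

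**Figure D3:**
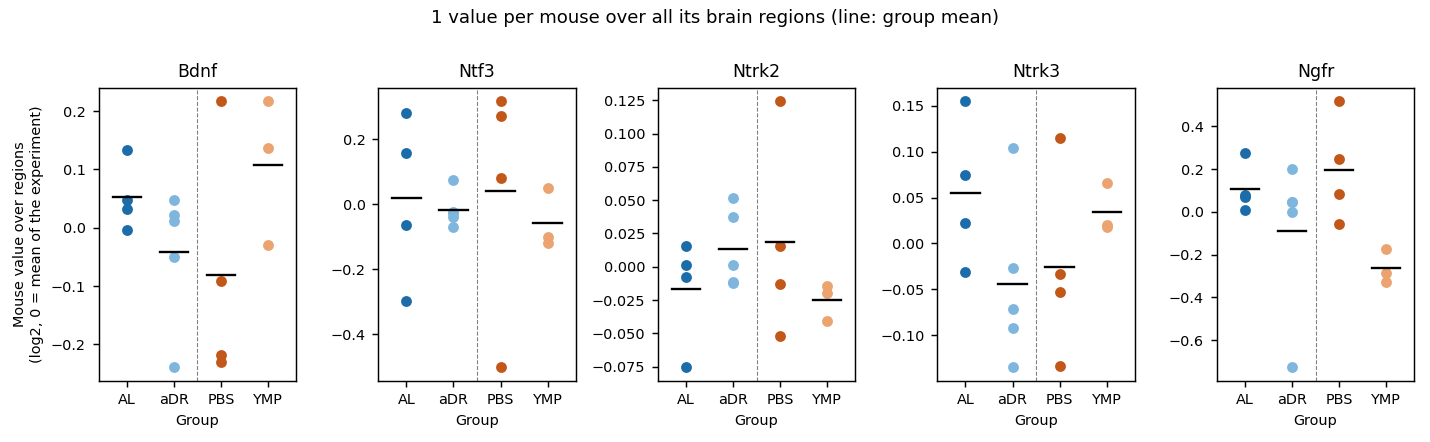
Value of each mouse over all its brain regions (y axis, log2, 0 is the mean of the experiment, each panel with its own scale), 1 panel per gene, with AL and aDR females left and PBS and YMP males right of the dashed line, points for mice and lines for group means. The 3 YMP mice lie below the 4 PBS mice in Ngfr, aDR mouse 67 lies at -0.73 in Ngfr, and all other groups overlap.

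A further edgeR F test, with the mouse as a block, asked whether the treatment differences varied from region to region. No member passed. For diet the F values were 0.683 for Bdnf, 0.623 for Ntf3, 1.02 for Ntrk2, 0.465 for Ntrk3 and 0.757 for Ngfr, all with an adjusted p of 1, where 0.0192% of genes were called. For plasma they were 0.343 for Bdnf, 1.45 for Ntf3, 0.857 for Ntrk2, 0.848 for Ntrk3 and 0.787 for Ngfr, with adjusted p from 0.753 (Ntf3) to 1 (Bdnf), where 0.932% were called. No member had an unadjusted p under 0.05 in either test. The opposite signs of Ntrk3 in medulla and cerebellum under plasma are therefore not shown to differ by this test.

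The genes around these ligands and receptors were examined as 7 lists with 73 genes, of which 72 have a row. Over the regions of control mice 72 of 72 passed the edgeR F test, as did 99.7% of all genes, with Egr3, an activity-regulated factor, at the largest F (306), from 122 CPM in visual cortex to 0.181 CPM in cerebellum. Across regions limma called none of them: 0 of 71 for diet, with 10 under an unadjusted p of 0.05, and 0 of 72 for plasma, with 3. Over all genes, 2511 of 15616 for diet and 1275 of 15768 for plasma were under that p. For diet the smallest p belonged to Kidins220, a scaffold of Trk receptors (-0.13, adjusted p 0.0591), Ptpn11, a phosphatase in the Trk pathway (0.10, adjusted p 0.129), and Gab1, an adaptor for PI3 kinase (-0.17, adjusted p 0.202). For plasma it belonged to Plat, the tissue plasminogen activator that helps to cleave proBDNF (0.19), Ntf5, the other TrkB ligand (-0.32), and Pcsk5, a proprotein convertase (0.20). Ntf5 rested on few reads, with a highest regional mean of 0.885 CPM in control mice (choroid plexus). The control libraries of cerebellum and olfactory bulb held no Ntf5 read. With the mouse as a replicate block in limma voom, Ptpn11 and Kidins220 were called for diet (adjusted p 0.000216 and 0.0003), where 1474 of 15616 genes were. With no replicate block, in edgeR on libraries treated as independent, these, Gab1 (0.0344) and, for plasma, Plat (0.0031) were. That fit called 2527 of 15616 genes for diet and 2114 of 15768 for plasma. The 12 activity-regulated genes, such as Arc, Egr1 and Fos, had a higher mean value in YMP mice in 12 of 12 (median 0.22), with 0 called and 0 at an unadjusted p under 0.05. The mean of the list was 0.156, 0.164 and 0.0164 in the YMP mice and -0.00622, 0.095, -0.443 and 0.0184 in the PBS mice, so the groups overlapped. The lowest value was that of PBS mouse 80, and the difference of 0.20 between the group means was 0.076 without it. Under diet 4 were higher and 8 lower in aDR mice (median -0.06), with 3 at an unadjusted p under 0.05.

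Within single regions 0 of 1028 edgeR tests passed for diet, where 96 had an unadjusted p under 0.05. Of 1029 for plasma 0 passed, and 81 had such a p. Over all genes, from 222 of 13578 (pons) to 1931 of 14119 (olfactory bulb) had such a p under diet. Under plasma it was from 150 of 13135 (pons) to 1910 of 14120 (SVZ). As for the members, the share over all regions together is not given here, so the counts are not read against it. For diet the smallest p belonged to Arc in cerebellum, with 26.9 ± 3.2 CPM (SD, n = 5) in aDR and 34.9 ± 0.981 CPM (SD, n = 4) in AL mice (-0.39, adjusted p 0.122), to Gab1 in cerebellum (-0.48, adjusted p 0.129) and to Arc in thalamus (-0.83, adjusted p 0.681). For plasma 2 of the 3 were in SVZ. Lingo1, a p75 partner, averaged 79.7 CPM in YMP mice (SD 3.13, n = 3) and 46.1 CPM in PBS mice (SD 3.3, n = 4; 0.77, adjusted p 0.0519). Pcsk5 averaged 19.1 CPM (SD 1.99) against 6.09 CPM (SD 1.74), or 1.68 log2 units more (adjusted p 0.0519). Spry2, an inhibitor of receptor tyrosine kinase signalling, followed in cerebellum where 3 YMP mice averaged 31.8 CPM (SD 4.93) and 3 PBS mice 53.5 CPM (SD 5.17), a log2 difference of -0.72 (adjusted p 0.341).

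DESeq2 called 5 of these 6 values, with adjusted p of 0.026 for Arc and 0.0226 for Gab1 in cerebellum, 2.6e-08 for Lingo1 and 9.71e-07 for Pcsk5 in SVZ, and 0.000749 for Spry2. The share of all genes that DESeq2 called in these regions is not given here. For plasma edgeR called 0 of 14120 genes in SVZ and 1 of 13558 in cerebellum, and for diet 7 of 13366 in cerebellum. The 6 values were picked by their small p in the same data, so a call by a second tool is no independent support. In edgeR, Lingo1 and Pcsk5 were also called with no filter on low counts (0.0355 and 0.0392), with all regions in 1 fit (0.0113 and 0.000475, or with the mouse as a replicate block 0.0224 and 0.000695) and without PBS mouse 72 (0.0152 and 0.0217), and Lingo1 with DESeq2 size factors (0.046). Gab1 was called without aDR mouse 62 (0.0287) and Spry2 without PBS mouse 84 (0.0361). Each of the 6 values stayed uncalled under its other alternatives, those with another mouse left out among them. The share of all genes called in each of these settings is not given here. The SVZ libraries of PBS mice held 2660 to 19500 CPM of choroid plexus markers and those of YMP mice 26.2 to 47.9, and 41.1 to 90.4 against 18.8 to 24 CPM of fibroblast markers. The part of these tissues in the Lingo1 and Pcsk5 values was not tested.

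By region, 0 of 71 pathway genes were called for diet, where 0.0192% of all genes were, and 1 of 72 for plasma, a share near the 0.932% of all genes. This was Sh2b2, an adaptor that binds Trk receptors (F = 4.42, adjusted p 0.00542). Its difference was -1.14 in anterior hippocampus (2.67 against 5.61 CPM) and -0.79 in caudate putamen (1.54 against 2.73 CPM), but 0.83 in corpus callosum, 0.65 in SVZ and 0.60 in cerebellum, and within single regions it was not called. The call by region was lost without any 1 of YMP mice 73, 77 and 81 or PBS mice 72 and 84 (F from 3.09 to 3.73, adjusted p 0.0762 to 0.163).

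Because Bdnf is transcribed on neuronal activity, the mouse values of Bdnf were set against the mean mouse value of the 12 activity-regulated genes. Neither relation reached an adjusted p of 0.05. In the diet experiment Pearson r was -0.457 over 9 mice (2-sided exact permutation p 0.205, adjusted 0.205 over 2 relations) and Spearman rho -0.233 (exact p 0.552, adjusted 0.552). Without mice 61 and 64, the farthest on the activity axis, r was -0.489 (n = 7, exact p 0.273). In the plasma experiment r was 0.581 over 7 mice (exact p 0.134, adjusted 0.205) and rho 0.429 (exact p 0.354, adjusted 0.552), and without mice 77 and 80 r was 0.514 (n = 5, exact p 0.4). The signs were opposite in the 2 experiments. Each r pools treated and control mice. Within the plasma groups of 3 YMP and 4 PBS mice the signs also differed, while within the diet groups of 5 aDR and 4 AL mice both were negative. All of these groups hold too few mice for a correlation to be read. The CREB core printed above is a match of letters in 1 of 7 windows, and counts per gene do not show which Bdnf promoter was in use.

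**Figure D4:**
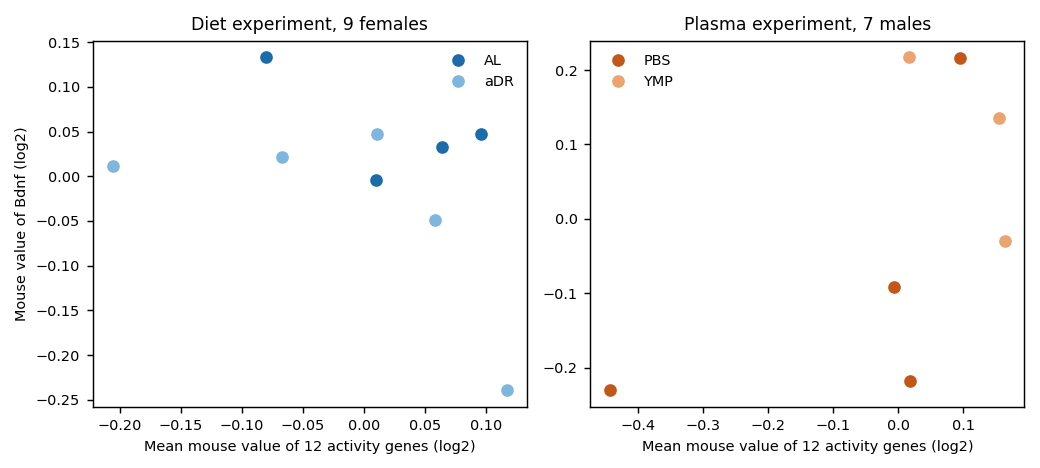
Mouse value of Bdnf over all brain regions (y axis, log2) against the mean mouse value of 12 activity-regulated genes (x axis, log2) in the diet (left, 9 females) and the plasma experiment (right, 7 males), 1 point per mouse, coloured by group. The points show no common slope (r -0.457 and 0.581), and PBS mouse 80 stands alone at the left of the plasma panel.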

How the data were processed

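Bulk RNA was measured in 229 brain libraries and 9 liver libraries. Per the labels, RNA was taken with RNeasy columns from homogenised tissue, and Smart-Seq2 cDNA was made into unstranded Nextera XT libraries, so reads carry no molecular identifiers and intervals or floors cover counting error only. The authors deposited raw read counts per gene in 1 table. Per the submitters' processing notes, Trim Galore 0.3.7, STAR 2.5.3a and DESeq2 were used with the GRCm38 build, while the counting program and annotation are not given in the sources used here.

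From these counts, CPM with TMM scaling was computed here over all brain libraries, and gene positions came from the GRCm38 annotation. Tests used edgeR 4.0.16 (quasi-likelihood, filter at a minimum count of 10) and limma 3.58.1 in R 4.3.3 on log2 CPM with a prior count of 2, and adjusted p-values are Benjamini-Hochberg over all genes tested, with a threshold of 0.05. DESeq2 1.42.0 was an alternative. The tests were tested on simulated data. Mouse numbers in the labels mark the same animal in every region, so region tests and tests by region had the mouse as a block, and tests across regions used 1 value per mouse. Each library is 1 animal, and how animals were housed or processed together is not given in the sources used here. Other alternatives were another scaling, no filter, another prior count, fewer libraries and each mouse left out.

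The members, the pathway lists and the cell type markers were chosen with earlier results of these data known. The 5 members are named in every comparison, single regions where called and, for each member and experiment, at the smallest p, with other values under an unadjusted p of 0.05 added after they were seen. Pathway genes are named where called (1 of 72 over regions) and otherwise as the 3 with the smallest p, and the genes most like a member as the 3 with the highest Pearson r. Some genes that this rule would name are not reported here.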

Additional observations from a re-analysis of the deposited data

Results flagged for a closer look

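Of 198 groups of 4 or 5 libraries, 17 (8.59%) had 1 library far from the rest by Dixon's test, which flags about 1 in 20 groups by chance. For Bdnf, PBS mouse 72 stood at 6.28 CPM in caudate putamen (0.726 to 1.52 in the other PBS mice) and aDR mouse 62 at 19.6 CPM in pons (33.2 to 38.3 in the other aDR mice).

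For Ntf3, aDR mouse 67 stood at 6.3 CPM in cerebellum (1.34 to 2.3 in the others) and at 3.04 CPM in thalamus (0.52 to 0.945). Mouse 64 of the same group stood at 18.2 CPM in entorhinal cortex (7.77 to 9.74) and at 8.29 CPM in pons (0.431 to 0.725). In caudate putamen PBS mouse 84 had 0.104 CPM, from 1 read, where the others had 0.

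For Ntrk2, AL mouse 68 stood at 422 CPM in cerebellum (340 to 345) and at 594 CPM in pons (451 to 467). In pons aDR mouse 67 was low at 327 CPM (449 to 486), and in SVZ aDR mouse 64 was low at 608 CPM (669 to 692). The pons library of mouse 67 held 23.4% of its counts in its top 10 genes, against 5.72 to 7.12% in the other pons libraries. For Ntrk3, PBS mouse 76 had 59.6 CPM in caudate putamen (92.8 to 99.4), aDR mouse 67 had 196 CPM in cerebellum (108 to 132), aDR mouse 62 had 56.7 CPM in entorhinal cortex (83.5 to 91.2) and aDR mouse 64 had 43.4 CPM in thalamus (19.4 to 23.4).

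For Ngfr, aDR mouse 62 had 8.1 CPM in entorhinal cortex (3.62 to 4.76), and the value of aDR mouse 67 over all regions was -0.727 on the log2 scale (-0.00184 to 0.201 in the others).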

How the results depend on the processing

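Counts of members called within regions and by region stayed at 0 under every alternative run, and all 5 members passed the F test over regions in each. The pairing of libraries by mouse mattered most across regions. With no replicate block (edgeR on libraries), 1 member was called for plasma in place of 0, Ngfr at -0.5, while with the mouse as a replicate block in limma voom Ngfr was at -0.67 and not called. With that block Ntf3 turned from -0.04 to 0.000699 for diet and from -0.10 to 0.201 for plasma, and with 1 mouse left out the diet value ran from -0.144 to 0.0482. Over all genes, diet calls across regions went from 144 to 1474 with the voom block and 2527 with no block, and plasma calls from 0 to 486 and 2114. Of the 45 region pair values, 14 in place of 24 were called in PBS mice alone, and 21 to 27 with 1 mouse left out. Of the 24, 13 were called under each of 16 alternatives. Of the 70 neighbouring steps, 12 were called, against 19 with all 16 mice, 5 in AL mice and 7 in PBS mice, and these steps were not run with single mice left out. The cause of these changes was not tested, but the AL and PBS sets hold fewer mice. The neighbours were set by the order of the same means, which favours small differences and few calls. Over all region pairs and genes, 60.3% of combinations were called. Ntf3 had few reads and passed the filter in 7 of 15 regions in each experiment, so low values of it rest on few counts. No member gained a call within a region, while the 5 named pathway values that DESeq2 called there are given beside their edgeR values above.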

Other observations

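In liver, Ntrk2 had 40.6 ± 21 CPM (SD, n = 5) in DR and 65.6 ± 27.8 CPM (SD, n = 4) in AL mice, and Ngfr 4.3 ± 2.75 and 6.67 ± 1.84 CPM. Ntf3 had 2.64 ± 1.27 CPM in DR and 0.937 ± 0.265 CPM in AL mice, a log2 difference of 1.52 (SE 0.42, p 0.00372, edgeR adjusted p 0.207), from 5 to 42 reads a library and with overlapping groups. Bdnf had at most 13 reads and Ntrk3 at most 4 in any liver library.

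Ntrk2 had a higher mean in PBS males than in AL females in 13 of 15 regions, against 4 for Bdnf, 8 for Ntf3, 8 for Ntrk3 and 7 for Ngfr. Sex and experiment cannot be told apart in these numbers.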
